A study of Mus musculus with 4 samples.

Results

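The Krüppel-like factor (Klf) genes encode zinc finger transcription factors. This account covers 10 of them, Klf1, Klf2, Klf3, Klf4, Klf6, Klf7, Klf9, Klf10, Klf13 and Klf16, out of 17 Klf genes and 21887 protein-coding genes listed by RefSeq on GRCm38.p6 (mm10). The 10 were chosen by the presence of a summit of open chromatin in these lists, with Klf6 as the anchor for its gene-end summit in 3 libraries. Every summit inside such a gene or within 10 kb on either side was taken from each of 4 ATAC-seq libraries, and a summit within 1000 bp of a gene's first or last base is called a gene-end summit. Which members had a summit was therefore part of how they were chosen, and it is given as a description with no test. The presence of a summit did not settle the choice by itself, and the 10 are not all the Klf genes with a summit. Klf5 and Klf11 had gene-end summits in both CD93-negative libraries but were not among the 10, and no rule given here leaves them out.

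ATAC-seq records where the transposase Tn5 can insert into DNA, so that accessible chromatin gives peaks, and a summit is the highest point of a peak. The libraries came from haematopoietic stem cells (HSCs) in marrow of femora and tibiae, taken from male wild-type mice of the C57BL/6 strain at 8 weeks of age. The cells were LSK, that is depleted of lineage markers and positive for Sca-1 and Kit, lacked CD34, CD48 and Flt3, and carried Slam1. They were sorted into a CD93+ and a CD93- fraction, here the CD93-positive and CD93-negative groups, with 2 libraries each. The labels do not name the mice behind each library or how many were pooled, so the spread between libraries may be technical. The comparison of the fractions is named in the title of the series.

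Krüppel-like factors share 3 zinc fingers near the carboxyl terminus, which bind GC-rich and CACCC-type DNA also bound by the related Sp factors. They differ in the amino-terminal part. One set, with Klf1, Klf2, Klf4, Klf6 and Klf7, mostly activates transcription, often with histone acetyltransferases. Klf3 represses through the corepressor CtBP. Klf9, Klf10, Klf13 and Klf16 can bind the corepressor Sin3a. In blood, Klf1 is the erythroid factor that binds the CACCC box of the beta-globin promoter, Klf2 holds lymphocytes in quiescence and Klf4 acts in monocyte differentiation.

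The promoter sequences of 6 members are shown first, because the summits described below fall on them or, for Klf1, do not. Each run is the 250 bases before the RefSeq start, from RefSeq on GRCm38.p6, written 5′ to 3′ on the strand of the gene, so that the last base is the base just before the start. Capitals mark matches, on either strand, to the GC box (GGGCGG), to the CCAAT box (CCAAT) and to the MEF2 consensus. Klf6 lies at chr13:5861239-5861488 (plus strand), Klf2 at chr8:72318812-72319061 (plus), Klf13 at chr7:63938916-63939165 (minus), Klf3 at chr5:64803271-64803520 (plus), Klf4 at chr4:55532476-55532725 (minus) and Klf1 at chr8:84901732-84901981 (plus).
Klf6: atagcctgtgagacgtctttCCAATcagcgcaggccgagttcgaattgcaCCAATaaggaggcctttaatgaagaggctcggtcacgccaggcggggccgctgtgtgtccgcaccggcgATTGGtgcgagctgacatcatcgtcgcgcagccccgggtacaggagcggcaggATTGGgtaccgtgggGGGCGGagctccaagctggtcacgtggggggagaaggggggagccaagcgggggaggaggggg
Klf2: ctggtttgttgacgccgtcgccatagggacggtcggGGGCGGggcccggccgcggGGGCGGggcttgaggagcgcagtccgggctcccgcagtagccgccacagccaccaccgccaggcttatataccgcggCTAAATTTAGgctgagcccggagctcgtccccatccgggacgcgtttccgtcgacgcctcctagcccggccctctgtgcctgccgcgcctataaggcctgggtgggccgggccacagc
Klf13: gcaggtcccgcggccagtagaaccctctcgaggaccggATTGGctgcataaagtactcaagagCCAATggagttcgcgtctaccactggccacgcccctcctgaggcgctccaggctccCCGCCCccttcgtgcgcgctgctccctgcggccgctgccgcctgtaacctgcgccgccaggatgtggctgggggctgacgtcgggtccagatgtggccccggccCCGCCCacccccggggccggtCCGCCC
Klf3: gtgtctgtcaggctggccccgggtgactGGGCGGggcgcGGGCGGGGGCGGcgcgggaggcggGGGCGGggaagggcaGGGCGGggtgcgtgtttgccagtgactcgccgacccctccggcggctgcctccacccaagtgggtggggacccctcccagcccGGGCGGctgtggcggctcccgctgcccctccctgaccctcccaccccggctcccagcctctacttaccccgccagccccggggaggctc
Klf4: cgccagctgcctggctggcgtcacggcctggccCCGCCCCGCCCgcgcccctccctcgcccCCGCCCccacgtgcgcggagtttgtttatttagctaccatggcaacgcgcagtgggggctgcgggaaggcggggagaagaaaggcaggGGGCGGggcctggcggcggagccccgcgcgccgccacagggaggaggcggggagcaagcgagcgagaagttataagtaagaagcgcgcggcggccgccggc
Klf1: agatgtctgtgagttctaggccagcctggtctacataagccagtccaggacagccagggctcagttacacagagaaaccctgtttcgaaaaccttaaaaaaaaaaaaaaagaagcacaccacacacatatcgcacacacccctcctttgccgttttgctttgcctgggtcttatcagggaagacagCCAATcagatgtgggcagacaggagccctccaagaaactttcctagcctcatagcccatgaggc
The first 3 had a gene-end summit in 3 libraries, Klf3 in both CD93-negative libraries, Klf4 in 1 library and Klf1 in none.

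CD93-positive replicate 1 listed 21 summits and replicate 2 listed 711, against 7989 in CD93-negative replicate 1 and 2755 in replicate 2. Read depth is unknown, and the length of a list limits what can be seen in it. Scores are the authors' −log10 of a p or q value from the peak caller, started at 3.03 to 3.09, and had medians of 4.38, 8.26, 20.6 and 9.81 in the same order of libraries. They are not scaled between libraries, so each score is given with its rank, or its rank as a percentage of the list, where rank 1 is the highest score. Ranks in lists of unequal length show no change between libraries. Of 11 HSC marker genes, Tal1 had a summit in the gene or within 10 kb, in CD93-negative replicate 1. The others of the 11, with Kit, Ly6a, Slamf1 and Procr, had none in any library. None of 8 endothelial markers had a summit. Of 8 B-lineage, 8 myeloid and 8 erythroid and megakaryocyte markers, at most 3, 2 and 2 had one in any library, and none in the CD93-positive libraries. In CD93-negative replicate 1 these were Cd79a, Igll1 and Vpreb1, then S100a8 and S100a9, then Epor and Itga2b. CD93-negative replicate 2 listed S100a8 and Epor. The same window was occupied in 43.5% of all protein-coding genes in CD93-negative replicate 1, in 18.5% in CD93-negative replicate 2 and in 4.62% in CD93-positive replicate 2. These markers carry no test, and nothing is concluded from them about the cells. The part of other cell types in the results below was not tested.

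All 10 members had a summit in the gene or within 10 kb in CD93-negative replicate 1, 8 in CD93-negative replicate 2, 5 in CD93-positive replicate 2 and 0 in CD93-positive replicate 1. The same window was occupied in 43.5%, 18.5%, 4.62% and 0.0411% of all protein-coding genes. The mean was 9 ± 1.41 members (SD, n = 2) in the CD93-negative and 2.5 ± 3.54 (SD, n = 2) in the CD93-positive group, a difference of 6.5 members. Both CD93-negative counts were above both CD93-positive counts, in the order of the lengths of the lists. Without CD93-positive replicate 1 the difference was 4 members.

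Gene-end summits were found at 9 members in CD93-negative replicate 1 (all genes 32.2%), at 8 in CD93-negative replicate 2 (12.9%), at 5 in CD93-positive replicate 2 (3.22%) and at 0 in CD93-positive replicate 1 (0.0183%). Klf2, Klf6, Klf7, Klf10 and Klf13 had one in CD93-positive replicate 2 and in both CD93-negative libraries, a pattern shown by 2.78% of all genes. With Klf3, Klf9 and Klf16, 8 members had one in both CD93-negative libraries, against 12.7% of all genes. Of these 8, 5 were also listed in CD93-positive replicate 2, against 21.8% of the 2787 genes listed in both CD93-negative libraries. Since the choice of members used these lists, nothing is read from these counts beyond the genes they name.

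When only the 711 highest-scoring summits of either CD93-negative list were kept, the length of CD93-positive replicate 2, fewer members stayed in them than CD93-positive replicate 2 held. Only Klf2 and Klf6 were in the cut list of CD93-negative replicate 1, in the wide window (all genes 4.79%) and at gene ends (3.28%). In that of CD93-negative replicate 2 these were Klf6 and Klf10 in the wide window (5.05%) and Klf6 alone at gene ends (3.38%). The difference between the group means was then -0.5 members, opposite in sign to that of the full lists. CD93-positive replicate 1, with 21 summits and 0 members, stayed in its group mean, so that this difference is not one of equal lists. In the lists of equal length alone, the wide window held 5 members in CD93-positive replicate 2 and 2 in either CD93-negative library. The cut sets the whole of CD93-positive replicate 2, weak summits included, against only the strong summits of the CD93-negative lists. Klf7, Klf10 and Klf2 held ranks 683, 423 and 454 of 711 in CD93-positive replicate 2.

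**Figure D1:**
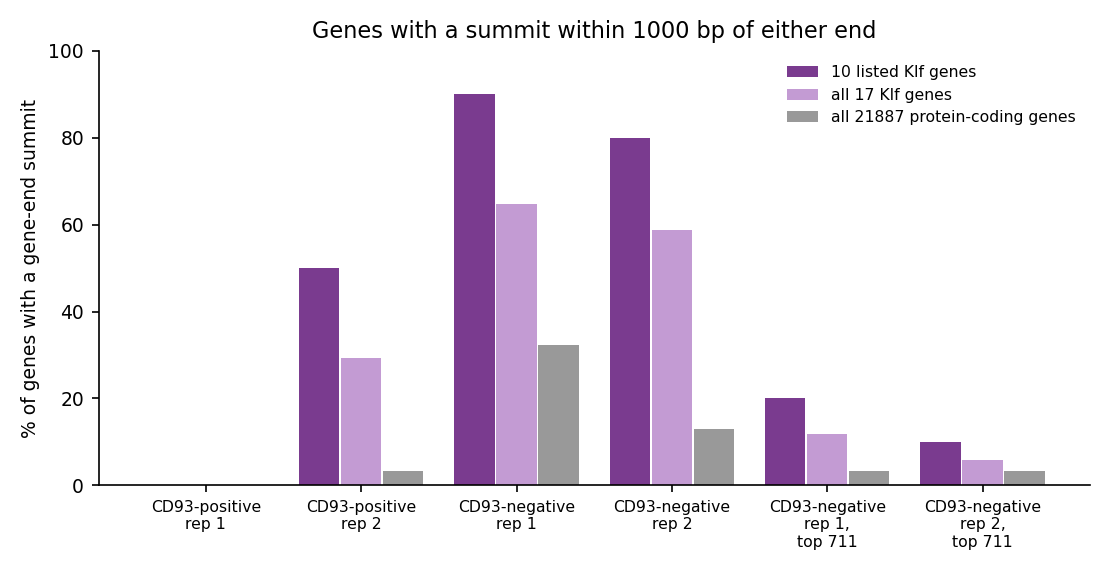
Percentage of genes with a summit within 1000 bp of either end, by library, for the 10 chosen Klf genes, all 17 Klf genes and all 21887 protein-coding genes; the last 2 groups of bars use the 711 highest-scoring summits of the CD93-negative lists. In CD93-positive replicate 2, 5 of the 10 chosen genes have such a summit, against 2 and 1 in the CD93-negative lists of equal length, and CD93-positive replicate 1 has none.

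Among the activators, Klf6, a widely expressed regulator of growth and differentiation, had the highest-ranked site of the family in every library that listed one (gene ID 23849, chromosome 13, 5861489 to 5870393). Its summits scored 124 in CD93-negative replicate 1 (rank 19 of 7989, the top 0.238%), 23.6 in CD93-negative replicate 2 (rank 78 of 2755, 2.83%) and 20.4 in CD93-positive replicate 2 (rank 37 of 711, 5.2%). The gene was thus among the strongest sites of each of these 3 lists, and it was absent from the 21 summits of CD93-positive replicate 1. The summits lay at 5861295, 5861268 and 5861306, or 194, 221 and 183 bases before the start, within 38 bp of one another. The printed sequence holds CCAAT boxes at 230 to 226 and at 200 to 196 bases before the start. The summit of CD93-negative replicate 2 lay between these boxes, and the other summits lay after the second.

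Klf2, the quiescence factor of lymphocytes and a flow-induced gene of endothelium, was second in CD93-negative replicate 1 (gene ID 16598, chromosome 8, 72319062 to 72321654). Its scores were 82.9 (rank 156, 1.95%) in CD93-negative replicate 1, 12.8 (rank 801, 29.1%) in CD93-negative replicate 2 and 6.97 (rank 454, 63.9%) in CD93-positive replicate 2. The site thus stood near the top of the first list and in the lower part of the last, the shortest of the 3. The summits lay 96, 122 and 57 bases before the start, spread over 65 bp. The MEF2 consensus in the Klf2 sequence, at 118 to 109 bases before the start, lay between the summits of the CD93-negative libraries. MEF2 factors induce Klf2 and Klf4 downstream of the kinase Erk5. This consensus was searched for after the sequences had been seen, and it occurred in 0.466% of 21255 promoters of 17486 protein-coding genes and in 0.279% of those of genes occupied at an end in CD93-negative replicate 1.

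Klf7, known for its part in neuronal outgrowth, was listed in the same 3 libraries (gene ID 93691, chromosome 1, 64029448 to 64122345). It scored 50.1 (rank 945, 11.8%) in CD93-negative replicate 1, 9.05 (rank 1554, 56.4%) in CD93-negative replicate 2 and 3.98 (rank 683, 96.1%) in CD93-positive replicate 2. In the CD93-positive library it was close to the lowest score listed, and it dropped out there at a score of at least 5. The summits lay inside the longest gene model and 398, 258 and 413 bases before the RefSeq start of the promoter table. They were also inside the long non-coding RNA gene Gm35880, so that they cannot be assigned to Klf7 alone.

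Klf4, one of the pluripotency reprogramming factors, had a single summit in CD93-negative replicate 1 (gene ID 16600, chromosome 4, 55527137 to 55532475). It scored 8.05 (rank 7028 of 7989, 88%) and lay 171 bases before the start, 64 bp from the long non-coding RNA gene Gm12506. Klf1, the erythroid member, also had a single summit in that library (gene ID 16596, chromosome 8, 84901982 to 84905291). It scored 16.3 (rank 4912, 61.5%) and lay inside the gene, 1457 bp from its start, so that Klf1 was the only one of the 10 genes with no gene-end summit. Both summits were in the lower part of the longest list, and neither site appeared in the other 3 lists.

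**Figure D2:**
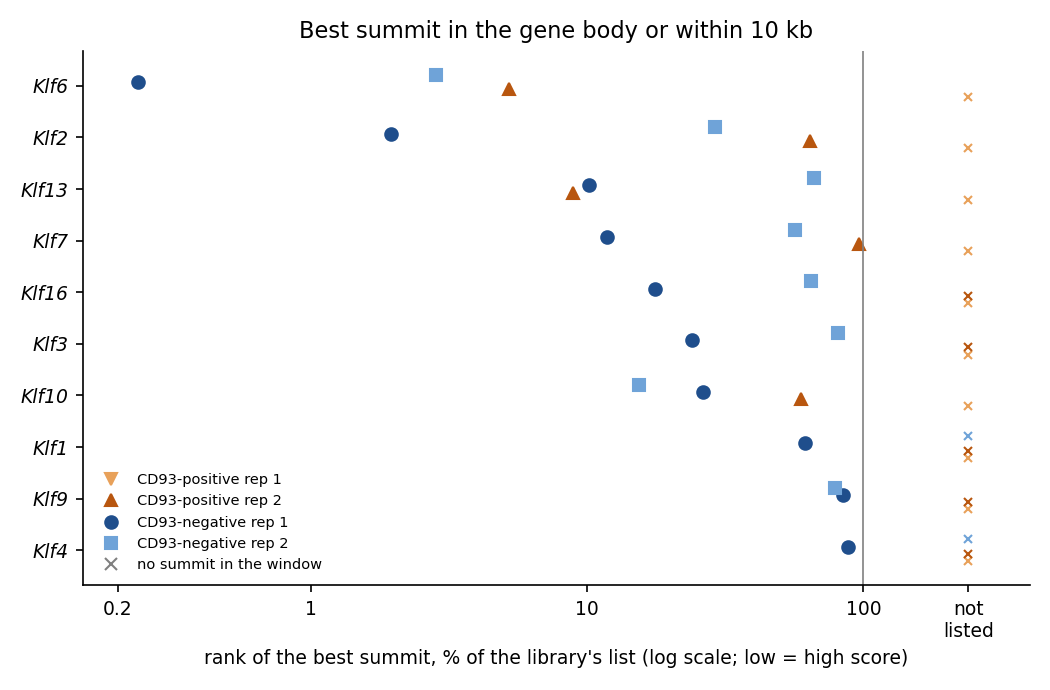
Rank of the best summit of each member, as a percentage of the library's list on a log axis, where low values are high scores and crosses mark libraries with no summit in the gene or within 10 kb. Klf6 is at 0.238%, 2.83% and 5.2% in the 3 libraries that list it, Klf1 and Klf4 appear in CD93-negative replicate 1 only, and every member is missing from CD93-positive replicate 1.

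Klf3, the CtBP-dependent repressor, was listed in both CD93-negative libraries and in neither CD93-positive one (gene ID 16599, chromosome 5, 64803521 to 64832901). It scored 36.4 (rank 1908, 23.9%) in replicate 1 and 6.47 (rank 2235, 81.1%) in replicate 2. The summits lay 239 and 78 bases before the start, 161 bp apart and on either side of the 6 GC boxes in the printed sequence. They were also inside the overlapping protein-coding gene Gm38457, 912 and 1073 bp from an end of it, so that they cannot be assigned to Klf3 alone.

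Of the members that can bind Sin3a, Klf13, an activator of the chemokine gene Ccl5 in T cells, had the best rank in CD93-positive replicate 2 (gene ID 50794, chromosome 7, 63886351 to 63938915). Its gene-end summit scored 16.2 there (rank 63 of 711, 8.86%), 52.9 in CD93-negative replicate 1 (rank 811, 10.2%) and 8.02 in CD93-negative replicate 2 (rank 1818, 66%). Among the 711 highest-scoring summits of either CD93-negative list, Klf13 was absent. The summit was on the same base, 63939113, in the first pair of libraries, 198 bases before the start, and at 151 bases before the start in CD93-negative replicate 2. The first of these positions lies between the pair of CCAAT boxes of the printed sequence, at 212 to 208 and 187 to 183. CD93-negative replicate 1 also listed a summit 1117 bp inside the gene (score 22.9, rank 3600) and one 26774 bp inside it (score 4.46, rank 7875).

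Klf10, a gene induced early by TGF-beta, had 2 sites (gene ID 21847, chromosome 15, 38291464 to 38300711). The gene-end site scored 34.5 (rank 2091, 26.2%) and 9.12 (rank 1542, 56%) in CD93-negative replicates 1 and 2, and 7.45 (rank 423, 59.5%) in CD93-positive replicate 2, and lay 149, 176 and 226 bp outside the gene. A second site lay inside the gene, 1532 and 1476 bp from that end, and scored 21.2 (rank 3878, 48.5%) and 16 (rank 424, 15.4%) in CD93-negative replicates 1 and 2. In CD93-negative replicate 2 the inner site outranked the gene-end site, and in CD93-negative replicate 1 it did not. The inner site was in neither CD93-positive list. Both sites also fall in the long non-coding RNA gene Gm35248, so that the summits cannot be assigned to Klf10 alone.

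Klf9, a glucocorticoid- and thyroid hormone-induced gene, was low in both CD93-negative lists (gene ID 16601, chromosome 19, 23141226 to 23168129). It scored 9.08 (rank 6759, 84.6%) in replicate 1 and 6.73 (rank 2174, 78.9%) in replicate 2, at 290 and 452 bases before the start. Klf16, also called dopamine receptor regulating factor, had a gene-end summit that scored 42.2 (rank 1409, 17.6%) in CD93-negative replicate 1 and 5.23 (rank 2496, 90.6%) in CD93-negative replicate 2 (gene ID 118445, chromosome 10, 80567121 to 80577296). A second Klf16 site, 5333 and 5344 bp beyond the opposite end of the gene, lay inside the neighbour Rexo1 and scored 7.24 (rank 7257) and 8.17 (rank 1780). Neither gene was in a CD93-positive list. The Rexo1 site was the outermost summit inside the window of 10 kb, and the nearest summit beyond the window lay 13142 bp from Klf16, 97 bp from an end of Abhd17a.

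In all, 29 summits at the members formed 14 sites when summits of different libraries within 250 bp were joined. Of these sites, 5 were in 3 libraries, 5 in 2 and 4 in 1, and the summits of a shared site lay within 11 to 162 bp of one another. Of the 29 summits, 22 were gene-end summits. The promoter table gives start and strand for 8 members, and all gene-end summits of these genes lay at the start, in 7 genes in CD93-negative replicate 1, 6 in CD93-negative replicate 2 and 4 in CD93-positive replicate 2. Over all genes with a known strand and a gene-end summit, 97.6%, 97.1% and 98.2% had one at the start in the same libraries. The position at the start was thus shared with nearly all occupied genes and was not particular to the Klf genes.

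**Figure D3:**
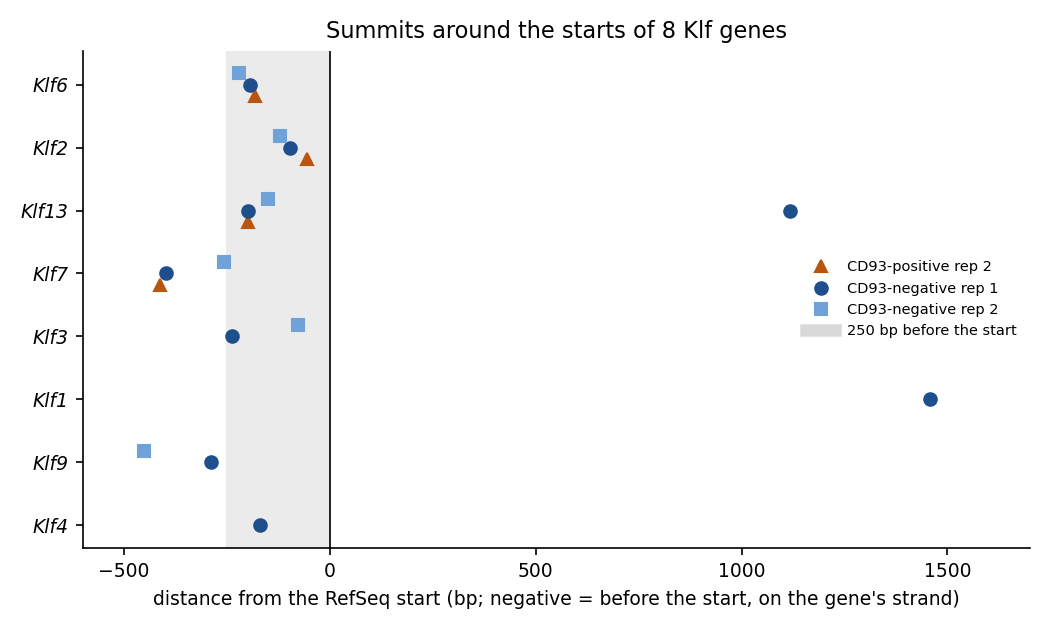
Position of each summit relative to the RefSeq start for the 8 members in the promoter table, in bp, negative before the start; the grey band is the 250 bp before the start and 1 summit at 26774 bp in Klf13 lies beyond the axis. All summits of Klf2, Klf3, Klf4, Klf6, Klf7 and Klf9 lie before the start, within 452 bp, and the Klf1 summit lies 1457 bp after it.

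The promoters of the members were then described by base composition, which the choice of members did not use directly. Promoters of occupied genes differ in composition from all promoters, as given next, so the choice was not independent of it. The median G+C content of the 250 bases before the start was 68% over 8 member promoters, 61.6% over 7160 promoters of genes occupied at an end in CD93-negative replicate 1, and 55.6% over all 21255. The median ratio of observed to expected CpG was 0.796, 0.791 and 0.53. Klf1 stood apart among the members, with a G+C content of 49.2% and a CpG ratio of 0.202, and was the member without a gene-end summit. The other 7 had at least 59.2% and 0.599. Klf3 had the highest G+C content, 78.4%, above that of 97.5% of all promoters. Klf6, with the best-ranked site, had 64.8% and a CpG ratio of 0.858. These points are a description of 8 promoters and carry no test.

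Short motifs were counted on both strands of the same 250 bases, and matches to different motifs may overlap. The GC box (GGGCGG) was found in 6 of 8 members, against 42.6% of all promoters and 63.7% of the 7160 promoters of occupied genes. Klf3 held 6 matches and Klf4 held 4, and Klf1 and Klf9 held none. The CACCC box (CACCC), the type of sequence that Krüppel-like factors bind, was in 6 of 8 (54.2% and 55.8%), with 5 matches in Klf3 and none in Klf4 or Klf6. The CCAAT box (CCAAT) was in Klf1, Klf6, Klf9 and Klf13 (35.4% and 38.5%), with 4 matches in Klf6. An AP-1 site (TGANTCA) was in Klf9 (6.14% and 3.32%) and a GATA site (GATAAG) in Klf1, the target of the erythroid factor Gata1 (6.25% and 3.94%). The cAMP response element (TGACGTCA), the ETS core (CCGGAA) and the TATA box (TATAAA) were in none of the 8, against 1.92%, 15% and 11.6% of all promoters and 3.48%, 26.2% and 5.39% of those of occupied genes. A match is a run of letters and not a bound site.

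**Figure D4:**
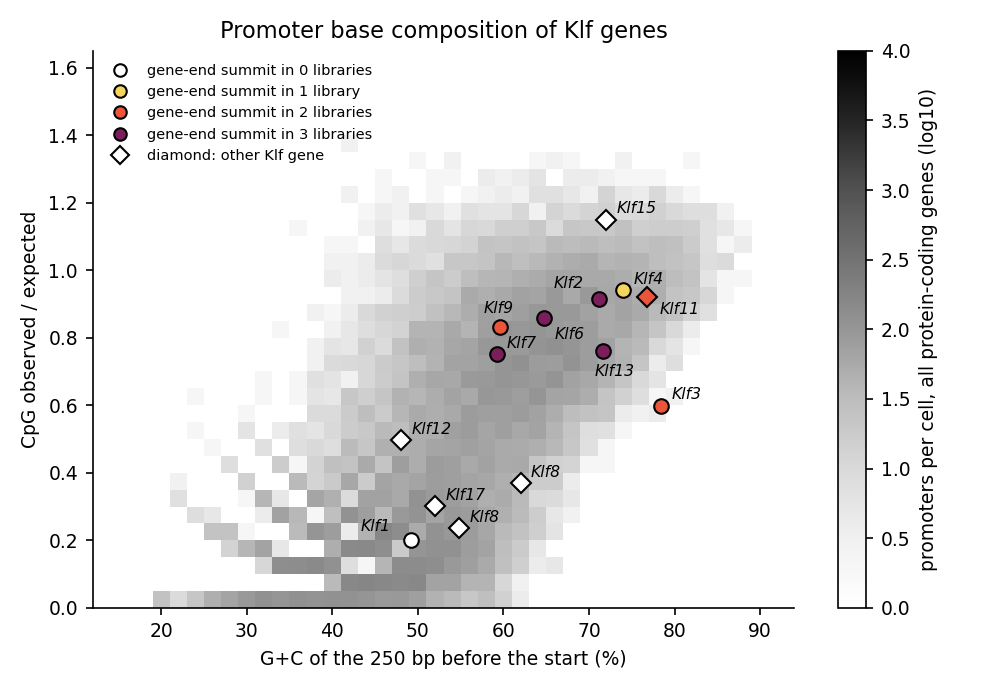
G+C content (%) and observed-to-expected CpG ratio of the 250 bp before the start, with Klf genes as points coloured by the number of libraries with a gene-end summit, over a grey map of all 21255 promoters (log10 scale). Klf1, Klf8, Klf12 and Klf17, with CpG ratios below 0.5, have no gene-end summit, while Klf15, at 1.15, also has none.

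The 7 other Klf genes were Klf5, Klf8, Klf11, Klf12, Klf14, Klf15 and Klf17. Of these, 2 had a summit in the gene or within 10 kb in each CD93-negative library and 0 in either CD93-positive library. The shares of all genes were 43.5% and 18.5% in CD93-negative replicates 1 and 2. They were 0.0411% and 4.62% in CD93-positive replicates 1 and 2. Klf5, a regulator of proliferation in intestinal crypts, scored 25.1 (rank 3258) and 12.1 (rank 918) in CD93-negative replicates 1 and 2, at 107 and 99 bp outside the gene. Klf11, a TGF-beta-induced relative of Klf10, scored 47.3 (rank 1104) 128 bases before the start in CD93-negative replicate 1 and 8.82 (rank 1619) 567 bases after it in CD93-negative replicate 2. Klf8, Klf12, Klf14, Klf15 and Klf17 had no summit in any library. Over the whole family of 17, which includes the 10 chosen members, 11 genes were occupied at an end in CD93-negative replicate 1, 10 in CD93-negative replicate 2 and 5 in CD93-positive replicate 2, where 9, 8 and 5 of these were the chosen members, so that nothing is read from their distance to the 32.2%, 12.9% and 3.22% of all genes.

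The Sp factors bind the same GC-rich sequences. Of 9 Sp genes, 3, 2 and 2 were occupied at an end in CD93-negative replicates 1 and 2 and CD93-positive replicate 2, beside 32.2%, 12.9% and 3.22% of all genes. Sp1, the ubiquitous GC-box activator, scored 53.1 (rank 804), 20.6 (rank 144) and 9.55 (rank 267), and Sp4 scored 56.7 (rank 678), 10.3 (rank 1268) and 7.35 (rank 434), in that order of libraries. Both genes were thus listed in the same 3 libraries as Klf6. At Sp3 the gene-end summit was listed by CD93-negative replicate 1 alone (score 25.9, rank 3127), and Sp2 had summits 5134 and 5206 bp inside its longest gene model, 137 and 65 bases before a RefSeq start, in both CD93-negative libraries (scores 57.6 and 15.9, ranks 634 and 434). At Sp7 the summit in the window lay 6 bp from an end of Aaas and 5838 bp from Sp7.

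Of 20 regulators and cofactors of the family, 16, 11 and 2 had a summit in the gene or within 10 kb in CD93-negative replicates 1 and 2 and CD93-positive replicate 2, beside 43.5%, 18.5% and 4.62% of all genes. At gene ends the counts were 11, 5 and 1, beside 32.2%, 12.9% and 3.22%. Mapk7, which encodes Erk5, and Ep300, an acetyltransferase partner, had gene-end summits in both CD93-negative libraries. Wwp1, a ubiquitin ligase of Klf2 and Klf5, was the only gene of this list with a gene-end summit in CD93-positive replicate 2. The corepressor gene Sin3a was listed in both CD93-negative libraries, in the wide window only, and Ctbp1 in replicate 1, at a gene end. Ctbp2, Map2k5, Kat2b and Smurf1 had no summit in the wide window in any library.

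The genes most like Klf6 were taken from the 606 others with a gene-end summit in the same 3 libraries and in no other, by the smallest value of the largest difference in rank percentage over the 3 libraries. They were Tmem123 (largest difference 0.976 percentage points), Ripk2, a kinase of innate immune signalling (1.42), Rad23b, a nucleotide excision repair factor (1.52), Nmt2, an N-myristoyltransferase (1.6), and Rab1a, a GTPase of transport from the endoplasmic reticulum (1.97). This likeness rests on 3 values a gene.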

How the data were processed

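ATAC-seq was measured in 4 libraries of sorted HSCs, put into the CD93-positive and CD93-negative groups, and numbered, by sample title. The numbers written in the names of the summits are not always those of the titles, so a replicate number here is only a name. The authors deposited 1 list of summits per library, not pooled, with a score in the layout of MACS2 taken as −log10 of the p-value or q-value, whichever of these the authors wrote. Per the submitters' processing notes, Bowtie2 and MACS2 were used on mm10. The versions, read filters and threshold they ran with were not given in the sources used here. Positions of 21887 protein-coding genes (autosomes and sex chromosomes) were those of RefSeq on GRCm38.p6, and starts, strands and sequences those of its promoter table, which matched 8 of the 10 members and 5 of the 7 other Klf genes. Promoters with an undetermined base were left out.

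Positions are 1-based. A gene was called occupied with at least 1 summit in the gene or within 10000 bp (wide window), or within 1000 bp of either end. Ties in score took the lower rank number. The members, gene lists and alternatives were chosen with earlier results of these data known, and no tests were run on them. Named genes were the 10 members, Klf and Sp genes of the lists with a summit, and the 5 genes most like Klf6. Other genes named from the fixed lists, and the neighbours of summits, were chosen after their values were seen. The work used numpy 2.4.6, pandas 2.3.3 and matplotlib 3.10.9 under Python 3.11.15, and the counting was tested on simulated data. Alternatives were flanks of 5 and 25 kb, gene-end windows of 500 and 2500 bp, score minimums of 5 and 10, equal list lengths, merging of summits within 500 bp, and leaving out each library. One planned HSC marker is not reported here.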

Additional observations from a re-analysis of the deposited data

How the results depend on the processing

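Of 79 values recomputed under an alternative, 66 stayed close to those reported, 12 moved and 1 changed sign. Some of the 66 could not have moved, so that this tally does not measure stability. The counts of 0 in CD93-positive replicate 1 cannot fall under stricter settings, and the cut to 711 summits leaves CD93-positive replicate 2 whole. With the lists cut to 711 summits, the number of members in the wide window was 2 in either CD93-negative library, and their summits numbered 2 in each. Gene-end members numbered 2 and 1 in replicates 1 and 2. The difference between the groups became -0.5 members, because the longer lists then hold fewer summits. That difference still includes CD93-positive replicate 1, whose list of 21 summits was too short to cut. With a score of at least 10, CD93-positive replicate 2 kept 2 members and 2 summits, and 2 gene-end members. CD93-negative replicate 2 kept 3 members, 3 summits and 2 gene-end members. The share of all genes at that score was not computed, so that nothing is read from these counts about the members. The other flanks, windows, the score minimum of 5 and merging moved no count by over 1.5 times. Leaving out 1 library gave a difference of 4 to 9 members, the lowest without CD93-positive replicate 1. The mean of the differences within replicate numbers (replicate block) was 6.5 members. With 2 libraries in each group it equals the difference of the group means by arithmetic, so that it could not have differed. Nothing shows that the numbers pair the libraries. Depth is unknown, so a missing summit may be a site below the calling threshold.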
